A study of Mus musculus with 4 samples.

Results

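LH-AL-3 was the smallest of 3 ascending limb clusters in single-nucleus RNA sequencing of mouse kidney cortex. Its members were chosen by measured values: among clusters 13 to 22 of 23, it is the cluster, number 22, whose mean over 4 mice was highest for Slc12a1. It held 69 of 34146 nuclei (0.202%), with 19 in the Control mouse, 16 in Control_AAI, 17 in OE and 17 in OE_AAI. LH-AL-1 (cluster 7) held 1705 nuclei and LH-AL-2 (cluster 11) held 844, and these are the clusters it is mainly set against.

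Each group was 1 male mouse of mixed strain, whose age is not given in the sources used here. Control and Control_AAI carried TRE-hKLF6, a human KLF6 gene that stays silent without the rtTA activator. OE and OE_AAI carried CAG-rtTA,TRE-hKLF6, so that the CMV-chicken beta-actin promoter drives rtTA throughout the body, and the transgene is not limited to the ascending limb. By the study's methods, all mice ate food with 200 mg/kg doxycycline, which switches rtTA on, for 1 week. Control_AAI and OE_AAI then received aristolochic acid I (AAI), a plant nephrotoxin that forms DNA adducts, once at 2 mg/kg into the peritoneum, 24 hours before collection. Control and OE have no treatment in the labels. All 4 libraries were prepared together as 1 technical batch. With 1 mouse per group there is no spread within any group, so no difference between groups has a test or a p-value.

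The thick ascending limb reabsorbs sodium, potassium and chloride through the cotransporter encoded by Slc12a1 and lets almost no water through, which dilutes the urine. Where the limb touches its own glomerulus it forms the macula densa, a plaque of cells that senses tubular salt through the same cotransporter. Macula densa cells signal to the afferent arteriole and to renin-producing cells, in part through neuronal nitric oxide synthase (Nos1) and the inducible cyclooxygenase (Ptgs2).

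Values are mean counts per 10000 counts of a nucleus, averaged over the nuclei of 1 cluster in 1 mouse, on a linear scale. In each set of 4 values the order is Control, Control_AAI, OE and OE_AAI. The LH-AL-3 columns rest on 35282, 41245, 31281 and 39809 unique molecules (UMIs), and 1 UMI was worth 0.439, 0.348, 0.379 and 0.358 on average. A value of 0 therefore allows a level of up to 1.32, 1.04, 1.14 and 1.07, the value of 3 UMIs. The median nucleus had 1134, 2376.5, 1327 and 1809 UMIs, so nuclei of the AAI-treated mice were deeper. In Control, 1 nucleus with 11231 UMIs held 31.8% of the UMIs, and the next had 2844. Intervals given below are exact Poisson or binomial 95% intervals. They cover counting error only, not differences between the nuclei of a mouse or between mice.

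Slc12a1 chose the cluster and is given as a description. Its level in LH-AL-3 was 129.7, 122.5, 126.9 and 120.8, almost the same in the 4 mice. The mean of 125 lay below LH-AL-2 (156) and LH-AL-1 (206), which the rule left out by their numbers. The next cluster inside the rule, mesangial cluster 14, had a mean of 6.94. Enox1, an oxidase gene given as the other marker, was at 18.1, 25.7, 12.96 and 16.6, and its mean of 18.3 was the highest of 23 clusters. LH-AL-2 was close behind at 16.8, and LH-AL-1 was at 4.79. OE had the lowest Enox1 level in all 3 ascending limb clusters.

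**Figure D1:**
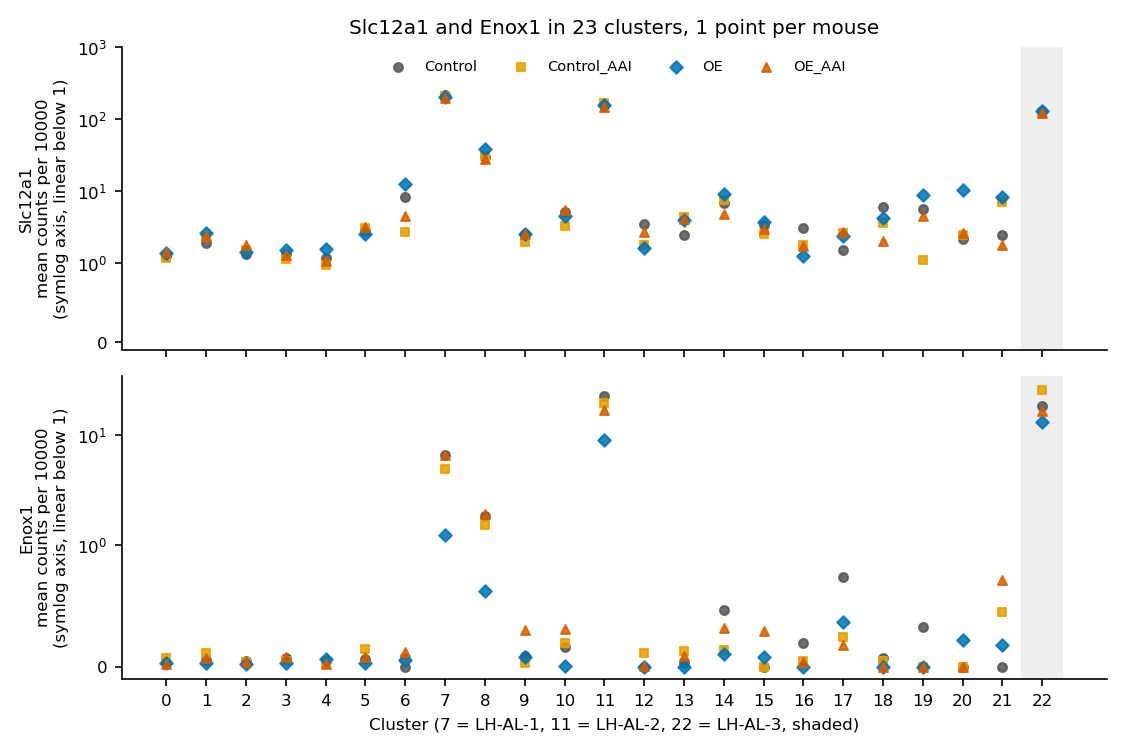
Slc12a1 and Enox1 in 23 clusters, with mean counts per 10000 on a symmetric log axis (linear below 1) and 1 point per mouse. Only clusters 7, 11 and 22 passed 100 for Slc12a1, and the means of Enox1 in clusters 22 and 11 were 18.3 and 16.8.

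Across 2688 genes, LH-AL-3 was most like LH-AL-2 (Pearson's r = 0.818) and LH-AL-1 (0.809), followed by the distal convoluted tubule cluster (0.763) and the connecting tubule cluster (0.727). These correlations are across genes, which are not independent replicates, and the columns share their libraries. Slc12a1 chose the cluster and so is no check of its label.

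The gene furthest above both other ascending limb clusters was Robo2, and the gene furthest below was Cacnb4. A gene counted where LH-AL-3 differed from both LH-AL-1 and LH-AL-2 of the same mouse by at least 1 on the log2(value + 1) scale, in 4 of 4 mice, with a larger value of at least 2. Of 662 genes that could count, 17 were higher (2.57%) and 20 were lower (3.02%), together 5.59%. The clusters were made from these same values, so the counts describe the cluster and nothing is read from their size.

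Robo2, a receptor for Slit guidance proteins, stood at 44.7, 44.9, 25.4 and 64.3 in LH-AL-3, against means of 0.423 in LH-AL-1 and 0.302 in LH-AL-2. Its level was highest in OE_AAI and lowest in OE. Podocytes had a similar Robo2 mean of 40.9. Nos1, which makes nitric oxide, stood at 11.7, 12.9, 5.96 and 13.1, and no other cluster had a mean above 0.0450. Pappa2, a protease that frees insulin-like growth factors from their binding proteins, stood at 10.7, 12.9, 1.64 and 16.6, and no other cluster passed 0.0303. The OE value of Pappa2 came from 9 UMIs in 4 nuclei and fell under the minimum of 2, so Pappa2 is not among the 17. Ptgs2 was at 0.696, 4.46, 0 and 3.39, and its highest other ascending limb mean was 0.00366.

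These 4 genes carried a list of 8 macula densa markers chosen with earlier results of these data known. The list summed to 67.8 (57.5 to 79.4), 77.0 (67.2 to 87.9), 34.2 (27.5 to 42.0) and 98.3 (87.0 to 111), against 0.288 to 0.759 in LH-AL-1 and 0.139 to 0.577 in LH-AL-2. The other members were low. Calcr, the calcitonin receptor, was at 0.0469, 1.504, 1.17 and 0.374. Tmem158 was at 0, 0.399, 0 and 0.365, Avpr1a had 1 UMI in OE_AAI alone, and Ppfia2 was at 0 in 4 of 4 mice.

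The promoters of Nos1 and Pappa2, the genes with the largest ratios to the next cluster, are shown beside those of Slc12a1 and Umod. Slc12a1 was shared by the 3 ascending limb clusters. Umod had a lower mean in LH-AL-3 than in both other ascending limb clusters but did not meet the definition of a lower gene. Each window runs from 250 bases before to 50 bases after a RefSeq start on GRCm38.p6 and is written 5′ to 3′ on the gene's strand. The windows are chr5:117866589-117866888 (+, Nos1), chr1:158958126-158958425 (-, Pappa2), chr2:125152350-125152649 (+, Slc12a1) and chr7:119479213-119479512 (-, Umod). The Nos1 and Pappa2 windows lie inside the annotated genes, at a start downstream of the outermost one. Capitals mark GTTAAT, part of the site of hepatocyte nuclear factor 1.
Nos1: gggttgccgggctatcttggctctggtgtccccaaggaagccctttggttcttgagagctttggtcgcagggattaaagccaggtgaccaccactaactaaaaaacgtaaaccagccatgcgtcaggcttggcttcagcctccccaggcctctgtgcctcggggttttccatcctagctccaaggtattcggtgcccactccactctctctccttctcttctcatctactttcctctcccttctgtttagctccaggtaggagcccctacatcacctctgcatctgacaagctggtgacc
Pappa2: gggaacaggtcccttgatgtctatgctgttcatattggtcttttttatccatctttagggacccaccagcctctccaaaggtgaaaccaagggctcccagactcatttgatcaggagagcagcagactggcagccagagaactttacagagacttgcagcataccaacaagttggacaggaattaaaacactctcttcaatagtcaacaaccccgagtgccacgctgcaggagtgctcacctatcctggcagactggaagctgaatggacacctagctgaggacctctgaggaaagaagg
Slc12a1: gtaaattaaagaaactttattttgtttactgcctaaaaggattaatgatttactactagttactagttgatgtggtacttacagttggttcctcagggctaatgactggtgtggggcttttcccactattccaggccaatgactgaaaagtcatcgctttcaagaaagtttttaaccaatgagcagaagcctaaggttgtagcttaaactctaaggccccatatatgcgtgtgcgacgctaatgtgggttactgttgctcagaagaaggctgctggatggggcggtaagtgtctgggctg
Umod: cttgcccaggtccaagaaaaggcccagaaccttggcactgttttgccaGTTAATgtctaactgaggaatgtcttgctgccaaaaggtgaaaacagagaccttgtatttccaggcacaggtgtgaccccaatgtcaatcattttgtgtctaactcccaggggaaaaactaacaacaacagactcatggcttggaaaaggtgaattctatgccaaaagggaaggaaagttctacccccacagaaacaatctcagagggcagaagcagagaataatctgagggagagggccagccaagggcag

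Of these 4 windows, GTTAAT was found in that of Umod alone, at position -202 from the start. Windows of Robo2 and Egf were also searched and are not shown. Of the 3 windows of Robo2, the gene furthest above both other ascending limb clusters, only the furthest upstream had GTTAAT. That window lies outside the annotated gene, and the window at the annotated start had no match. The windows of Egf had none. GTTAAT was therefore not limited to Umod among the genes searched. Searched on both strands, GTTAAT was in 3 of 26 windows of the higher genes, 3 of 26 of the lower genes and 7.10% of all 32851 windows. The site of estrogen-related receptors, AAGGTCA, was in 0 of 26, 1 of 26 and 4.72%. The AP-1 site TGANTCA was in 4 of 26, 0 of 26 and 7.81%, and the box CCACACCC bound by KLF and SP factors was in 1 of 26, 1 of 26 and 3.56%. No motif contains another. The RefSeq table held windows for 11 of 17 higher genes and 17 of 20 lower ones, and a match is a description of letters, not a bound site.

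Further genes were higher in LH-AL-3 than in both other clusters in every mouse. Ndst4, which sulphates heparan sulphate chains, stood at 5.596, 13.8, 8.09 and 13.6, with 0.0371 as the highest single value in LH-AL-1 or LH-AL-2. Thsd4, a protein of extracellular microfibrils, stood at 31.7, 26.4, 24.9 and 32.8, against 4.59 and 0.601 as means of LH-AL-1 and LH-AL-2. Tshr, the thyrotropin receptor, stood at 9.92, 8.01, 2.86 and 12.2. None of these 3 ranges touched those of LH-AL-1 or LH-AL-2, a description, since the genes were chosen for being higher in every mouse.

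The signalling genes among the 17 were Pde10a, a cyclic nucleotide phosphodiesterase (26.3, 18.2, 5.85 and 20.0), and Camk2d, a calcium and calmodulin kinase (15.02, 19.6, 13.1 and 19.03). Pla2g4a, the cytosolic phospholipase that releases arachidonic acid, the substrate of Ptgs2, was at 6.02, 4.23, 3.86 and 5.23. Sfrp1, a secreted Wnt inhibitor, was at 16.4, 7.11, 7.18 and 12.4. The lowest of 4 mice was OE for Pde10a, Camk2d and Pla2g4a, and Control_AAI for Sfrp1. The potassium channel gene Kcnc2 was at 5.35, 9.22, 2.98 and 8.00, and Pappa, a relative of Pappa2, was at 4.56, 7.13, 6.26 and 9.47. Auts2, Pamr1, Sgms2, Cntn5, Sec14l1 and the antisense RNA gene 9530026P05Rik completed the 17. Their means ran from 3.42 for Pamr1 to 13.1 for Sgms2.

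The 20 lower genes included a nuclear receptor, a coactivator and metabolic enzymes. Esrrb, an orphan nuclear receptor, was at 0.658, 0.538, 1.01 and 1.01, against means of 8.09 in LH-AL-1 and 6.08 in LH-AL-2. Ppargc1a, the coactivator that drives mitochondrial biogenesis, was at 2.01, 2.45, 1.26 and 1.71, against 11.03 and 11.7. Hk1, which phosphorylates glucose, was at 0.936, 0.671, 0.992 and 0.723, against 4.08 and 3.74. Bckdhb, of branched-chain amino acid breakdown, had a mean of 0.877 against 14.3 and 8.45. Of the lists on mitochondria, 0 of 5 tested nuclear genes of oxidative phosphorylation and 0 of 9 tested mitochondrially encoded genes differed from both clusters. Over all genes this share was 5.59%, so with so few tested these counts say little about mitochondria.

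Tmem207, a marker of the cortical limb, was at 0 in 4 of 4 mice, against 3.27 and 10.2. Over 69 nuclei, 0 allows a share of up to 4.35% of nuclei with a UMI. The calcium channel subunit gene Cacnb4 was at 0.331, 0, 1.34 and 0.0950, against 24.9 and 14.3. Ank3, which anchors membrane proteins to spectrin, remained detectable at 23.9, 15.4, 17.6 and 16.9, against 71.4 and 93.5. The other 13 lower genes were Abca13, Rgs6, Dst, Slc2a13, Pde1a, Stxbp4, Ston2, Gm17276, Wwc1, Slc9a3, Chst9, Dnm3 and Lrrk2, with means from 0.350 to 2.52.

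**Figure D2:**
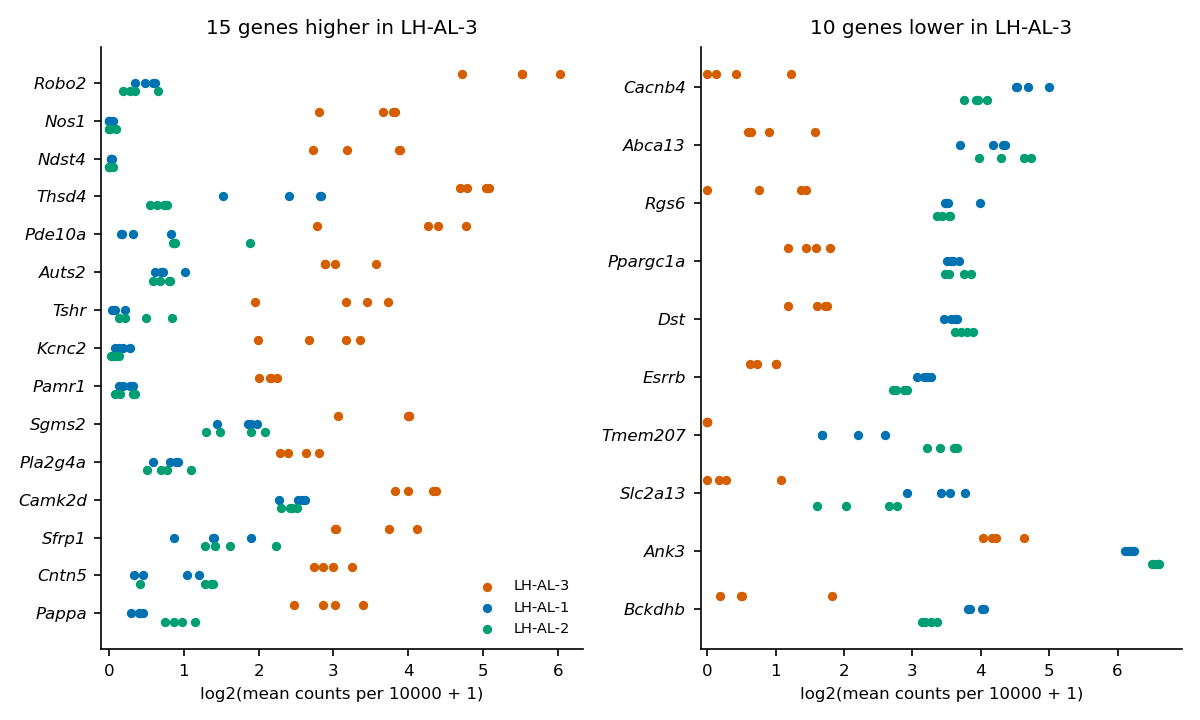
The 15 higher and 10 lower genes with the largest smallest difference from LH-AL-1 and LH-AL-2, on a log2(mean counts per 10000 + 1) axis, with 1 point per mouse and cluster. The LH-AL-3 points stand apart from both other clusters in every gene, from Robo2 at the top to Pappa and, on the right, from Cacnb4 to Bckdhb. The genes were chosen for this difference.

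Counts include introns, so long genes collect more of them. The 662 genes had a median genomic span of 142 kb, the 17 higher genes 233 kb and the 20 lower genes 180 kb.

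Set against all 22 other clusters, 50 genes were highest in LH-AL-3 in 4 of 4 mice, and 22 of these had a mean of at least 2 and at least 2 times that of the next cluster. Pappa2 led with a mean of 10.5, followed by Nos1 (10.9, next cluster 0.0450) and Ndst4 (10.3, next 0.0619). Prr16 was at 0.247, 5.92, 1.70 and 6.36, Unc5d, a netrin receptor, at 8.31, 4.33, 0.231 and 3.21, and Kcnd2, a potassium channel of the transient outward current, at 7.38, 2.86, 1.30 and 7.77. These 3 varied widely between mice, and the OE value of Unc5d was 1 UMI. Kcnj3, an inwardly rectifying potassium channel, was at 1.39, 1.53, 4.53 and 3.62, with 0.375 in the next cluster. Plcxd3 was at 7.07, 12.9, 2.39 and 12.01, and Nadk2, the mitochondrial NAD kinase, at 3.16, 5.98, 1.97 and 4.43.

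The genes least far from the next cluster were Diaph2, a formin, and Hoxc5, each with 2.02 times the next mean. Camk2d, Cntn5, Pamr1, Pla2g4a, Sec14l1, Sfrp1, Thsd4, Ndst4 and Nos1 were 9 genes that met both definitions. Zfand5, Ssfa2, Ptk7 and Wwc2 completed the 22.

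The salt transport list of the limb, which also holds Umod and Egf, had a lower sum than in the other ascending limb clusters. Few single members passed the threshold. The 19 measured genes of the list, Slc12a1 included, summed to 247 (227 to 268), 215 (199 to 233), 263 (244 to 284) and 201 (184 to 218). LH-AL-1 ran from 386 to 474 and LH-AL-2 from 395 to 473, so the ranges did not overlap. Without Slc12a1, which chose the cluster, the 18 others summed to 117, 92.6, 136 and 79.8, against 186 to 258 in LH-AL-1 and 238 to 318 in LH-AL-2. Of 14 list members tested against both clusters, 0 were higher and 1, Slc9a3, was lower, beside 5.59% of all genes in either direction, with a median difference of -0.59 against -0.07 over all genes.

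Umod, the main urinary protein, was at 9.33, 7.07, 15.6 and 3.36, and its mean of 8.83 compares with 37.0 and 37.5 in LH-AL-1 and LH-AL-2. Egf, the growth factor precursor, was at 27.7, 8.71, 42.3 and 2.21, against means of 93.8 and 132. Umod and Egf are not transporters, and they gave most of the gap in the list sum that was left without Slc12a1. Atp1b1, the beta subunit of the sodium pump, was closer, at 11.44, 11.6, 12.5 and 13.9 against means of 15.8 and 14.3. The apical potassium channel gene Kcnj1 was at 5.21, 1.89, 3.12 and 1.57, and the AAI-treated mice had the 2 lowest levels.

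Sodium-proton exchangers differed in kind. Slc9a3 was at 1.47, 0.687, 0.8005 and 0 and lower than in LH-AL-1 (4.14) and LH-AL-2 (4.65). Slc9a2 was at 3.32, 2.92, 1.14 and 2.27, the highest mean of 23 clusters, against 0.503 and 0.726. Casr, the calcium-sensing receptor, was at 1.34, 2.69, 5.47 and 2.65, below LH-AL-2 at 10.3. Ptger3, a prostaglandin receptor, was at 5.27, 6.56, 8.93 and 7.13, between LH-AL-2 at 3.59 and LH-AL-1 at 14.2. The kinase gene Wnk1 was at 17.3, 20.8, 6.38 and 20.6, with OE the lowest.

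Claudins, which set the paracellular cation path, had sums of 1.07, 1.19, 3.38 and 1.70 over 6 genes, against 3.60 to 4.09 in LH-AL-1 and 2.94 to 4.43 in LH-AL-2. The OE value lay inside the LH-AL-2 range, and 0 of the 6 could be tested against both clusters. Cldn19 was at 0 in 4 of 4 mice, and Cldn16 was at 0.425, 0.597, 0 and 0.567. Of the cortical limb list, Enox1 was high while Tmem207 and Ppm1e were at 0 in 4 of 4 mice. Without Enox1, the marker given with the cluster, the other 6 genes summed to 1.04 to 2.42, below LH-AL-1 (4.87 to 6.93) and LH-AL-2 (19.3 to 21.6). The medullary list summed to 3.05 to 7.67, below LH-AL-1 (20.5 to 24.5) and LH-AL-2 (15.9 to 18.9), and Nell1 was at 0 in 4 of 4 mice.

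Among 15 transcription factors and coactivators of the limb, the sums were 82.8, 79.7, 79.1 and 77.2. They lay close to the range of LH-AL-1 (80.7 to 84.5) and above that of LH-AL-2 (62.6 to 70.9). Of 7 members tested against both clusters, 0 were higher and 2, Esrrb and Ppargc1a, were lower, beside 5.59% of all genes in either direction. Esrrg, a relative of Esrrb, gave the largest part of these sums, at 48.2, 46.3, 47.5 and 49.6, against means of 42.9 in LH-AL-1 and 27.5 in LH-AL-2. Tfcp2l1 was at 13.2, 10.7, 15.3 and 5.75, against 5.05 and 6.09. Irx1 and Irx2, homeobox genes of intermediate nephron segments, had means above those of all other clusters but single values of at most 2.01. Mouse Klf6 was at 0.578, 0.257, 0 and 0.117, which is 2 UMIs or fewer in each mouse. The table has 0 rows for the human transgene, so expression of hKLF6 in these nuclei could not be checked.

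The list of 14 sodium and energy regulators summed to 28.9, 28.7, 25.8 and 30.8, against 25.7 to 32.1 in LH-AL-1 and 28.7 to 32.7 in LH-AL-2, so the ranges overlapped. Of 4 members tested against both clusters, 0 were higher and 1, Hk1, was lower, beside 5.59% of all genes in either direction. The mineralocorticoid receptor gene Nr3c2 was at 11.05, 9.51, 10.2 and 9.18, and Fkbp5, a glucocorticoid target, at 3.51, 4.95, 5.25 and 5.36, the highest mean of 23 clusters.

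Of the marker lists of other cell types, those of podocytes, endothelium, intercalated cells and, at a mean of 0.490, mesangium and stroma had higher means than in LH-AL-1 and LH-AL-2. The 16 proximal tubule genes summed to 119 (105 to 134), 63.1 (54.3 to 73.0), 142 (128 to 157) and 77.7 (67.7 to 88.7), with Kap, the androgen-regulated kidney protein, at 66.4, 35.7, 92.7 and 34.6. The same sum was lower in both AAI-treated mice in LH-AL-1 (146, 98.9, 157 and 86.3) and LH-AL-2 (133, 90.3, 156 and 76.4). Distal convoluted tubule genes summed to 5.39 to 10.4, against 8.40 to 11.27 and 8.34 to 12.6, with Trpm6 and Fgf13 at 0 in 4 of 4 mice. Connecting tubule and principal cell genes summed to 2.98 to 3.38, against 2.90 to 6.66 and 3.497 to 6.21, with Scnn1b, Scnn1g, Avpr2 and Fxyd4 at 0 in 4 of 4 mice.

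The podocyte list summed to 12.3 to 26.4, against 9.77 to 15.6 in LH-AL-1 and 4.08 to 6.42 in LH-AL-2. In LH-AL-3 nearly all of it was Magi2 (26.1, 11.8, 18.2 and 11.27), while Nphs1 and Ptpro were at 0 in 4 of 4 mice, beside the Robo2 level that podocytes share. Endothelial genes summed to 2.76, 6.27, 0 and 3.48, against 1.20 to 1.76 and 0.812 to 2.14, of which Meis2 gave 5.52 in Control_AAI, from 8 UMIs in 2 nuclei. Of the 9 endothelial UMIs of Control_AAI, 8 came from 1 nucleus of 831 UMIs. Immune genes summed to at most 0.435 and mesangial and stromal genes to at most 1.27. Of 7 thin limb genes, Slc14a2, Bst1, Fst and Corin were at 0 in 4 of 4 mice, and the sum was at most 2.72.

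The intercalated cell list summed to 0.712, 0.186, 0.946 and 8.21, against means of 0.589 in LH-AL-1 and 0.724 in LH-AL-2. In OE_AAI, 23 of its 26 UMIs came from 1 nucleus of 1917 UMIs, and all of the Slc26a4 level of 5.22 was 17 UMIs of 1 nucleus. The other 3 mice had 1 or 2 intercalated cell UMIs each. A nucleus cannot be taken out of the deposited mean, so its part in the OE_AAI values was not tested.

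Between conditions, the share of genes past the threshold was far larger in LH-AL-3 than in the other ascending limb clusters. A gene passed where the difference of log2(value + 1) was at least 1 and the larger value at least 2, which stands for 4.56 to 5.75 UMIs. With AAI in control mice, 161 of 1388 genes were higher (11.6%) and 163 lower (11.7%), together 23.3%. With AAI in OE mice, 178 of 1322 were higher (13.5%) and 150 were lower, together 24.8%. In LH-AL-1 the same shares were 1.22% and 4.49%, and in LH-AL-2 0.936% and 4.72%.

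The median difference over all genes was 0.16 with AAI in OE, and centred on it 129 genes were higher and 209 lower, so the split of directions there depended on the scaling. In control mice the median was 0.03. In the other clusters, 26 comparisons had under 100 nuclei on the smaller side, and their share past the threshold had a median of 6.03% and a range of 0.286% to 39.97%. In 5 comparisons with at least 1000 nuclei on the smaller side it was 0.395% to 2.80%. Cluster 20 had 15 nuclei on the smaller side with AAI in control (22.2%) and for genotype with AAI (24.3%). Its other shares were 12.6% at 27 nuclei and 5.37% at 41. Cluster 21, at 25 to 30 nuclei, had 16.3% and 19.3% with AAI, and 16.8% and 6.84% for genotype. The part of the low number of nuclei in the LH-AL-3 shares was not tested.

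**Figure D3:**
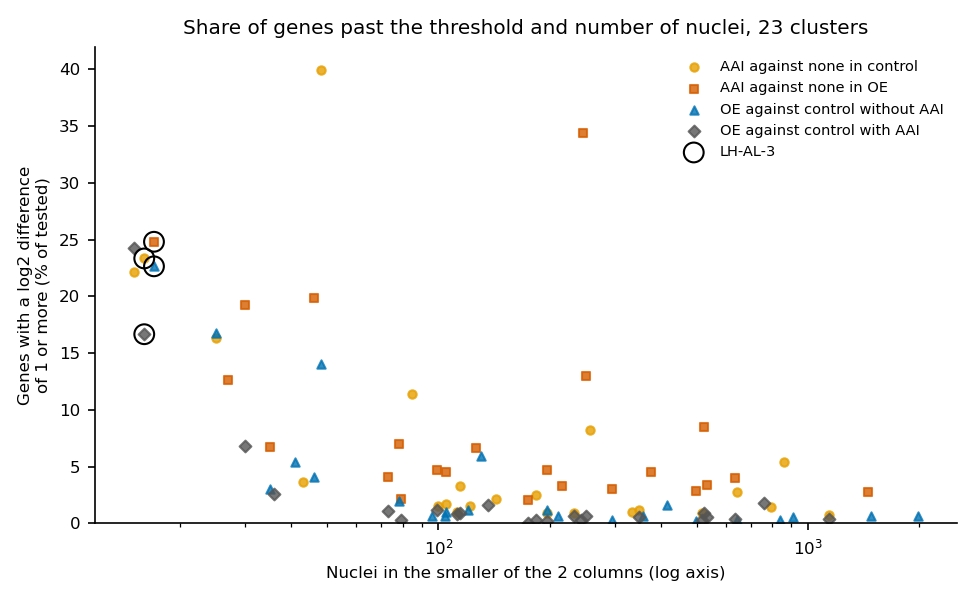
Share of tested genes with a log2 difference of at least 1, in percent, against the number of nuclei in the smaller of the 2 columns (log axis), with 1 point per cluster and comparison and LH-AL-3 ringed. The ringed points lie between 16.7% and 24.8% at 16 or 17 nuclei, and comparisons with at least 1000 nuclei lie at or below 2.80%.

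Genes that moved the same way with AAI in both genotypes are described first, since the comparisons share no mouse. Of 919 genes tested in both, 17 were higher and 21 lower in both (4.13%), and 8 moved in opposite directions (0.871%). Of all 919 genes, 75 were higher in control and 116 in OE, and 74 and 73 were lower. Beside these shares of all genes, the 17 were 22.7% of the 75 and 14.7% of the 116. The 21 were 28.4% of the 74 and 28.8% of the 73. In LH-AL-1, 1 was higher and 2 lower in both of 874 tested, and in LH-AL-2 0 were higher and 4 lower of 859.

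Egr1, Rgs2 and Ptgs2 were among the 17 genes higher with AAI in both genotypes. Egr1, an immediate early transcription factor, was at 0, 5.76, 0 and 2.77. The values with AAI were 4.38 times a floor of 3 UMIs per library in control and 2.43 times it in OE. These ratios to the floor leave out the counting error of the values with AAI, which rest on 17 and 8 UMIs. Both untreated mice had 0 UMIs. Rgs2, which damps signals from receptors coupled to G proteins, was at 0.583, 5.53, 0.158 and 3.47. Its ratios of 9.47 (1.97 to 532) and 21.9 (1.34 to 410) rest on 2 and 1 UMIs without AAI. Ptgs2 was 6.40-fold higher in control (1.17 to 47.1), and in OE its value with AAI was 2.98 times the floor.

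Egr1 also was higher in LH-AL-1 (differences of 1.25 and 1.32) and, by 0.89 and 0.97, in LH-AL-2. Rgs2 differed by 0.13 to 0.76 there, and Ptgs2 had single values of at most 0.0146 in those clusters. Over the immediate early and AP-1 list of 18 genes, LH-AL-3 summed to 3.34 (1.41 to 6.69), 17.1 (12.6 to 22.6), 3.69 (1.75 to 6.85) and 11.99 (8.28 to 16.8). LH-AL-1 summed to 2.23, 6.36, 2.08 and 6.97, and LH-AL-2 to 4.08, 6.91, 2.42 and 7.73. Fos, Junb, Nr4a1 and Btg2 were at 0 in both untreated mice and above 0 in both AAI-treated mice. Of the list, 2 genes were tested in each genotype and 1, Egr1, passed, beside 23.3% of all genes in control and 24.8% in OE. Ier3 was at 2.99, 4.37, 2.42 and 4.65, the highest mean of 23 clusters.

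Gpc5, a glypican, was at 1.44, 8.98, 0 and 4.34, Edem3, of endoplasmic reticulum quality control, at 0, 2.50, 0 and 2.75, and Prr16 at 0.247, 5.92, 1.70 and 6.36. Pou3f3, a POU factor of the developing loop, was at 0.232, 2.12, 0.310 and 2.20. Cacna1d, a calcium channel gene, was at 1.39, 6.64, 2.07 and 6.29, with ratios of 4.77 (1.48 to 26.5) and 3.04 (1.22 to 11.7). Genes chosen this way had to be high in the AAI-treated mice, so their order is a description. Luc7l2 (3.53, 10.98, 4.82 and 12.9) and Golga4 (0.0469, 2.47, 0.725 and 3.06) completed the 10 largest.

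The largest decrease common to both genotypes was in Tenm2, a teneurin adhesion gene, at 19.1, 1.32, 14.5 and 1.63. It was 14.5-fold lower in control (5.05 to 53.1) and 8.87-fold lower in OE (3.16 to 26.2), and 5 UMIs in 3 nuclei were left in each AAI-treated mouse. In LH-AL-1 it differed by -1.09 and -2.52, and in LH-AL-2 by -0.24 and -1.52, on the log2(value + 1) scale, against -3.11 and -2.56 in LH-AL-3. The LH-AL-2 difference in control was under the threshold.

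Egf was 3.18-fold lower with AAI in control (1.97 to 5.27) and 19.1-fold lower in OE (8.73 to 54.6). In LH-AL-1 its differences were -0.33 and 0.79, and in LH-AL-2 -0.31 and 0.29, so of the 3 clusters LH-AL-3 alone had both differences past the threshold. In OE_AAI, 9 UMIs in 6 nuclei were left. Slc12a1 had ratios of 0.945 (0.806 to 1.11) and 0.952 (0.814 to 1.11). Umod was lower in OE, 4.63-fold (2.31 to 11.295), while in control the ratio was 0.757 (0.389 to 1.46).

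Selenbp1, a selenium binding protein, was at 2.26, 0, 2.85 and 0.117, Shank2, a scaffold protein, at 5.33, 1.26, 5.42 and 1.20, and Cryl1, of sugar metabolism, at 3.88, 0.443, 3.12 and 0.578. Tnfaip8 (2.16, 0.291, 2.99 and 0.162) and Atp6v1g1, a proton pump subunit (2.06, 0.105, 2.49 and 0.513), were lower as well. They were chosen as the largest common decreases, so here too the order follows from the choice.

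**Figure D4:**
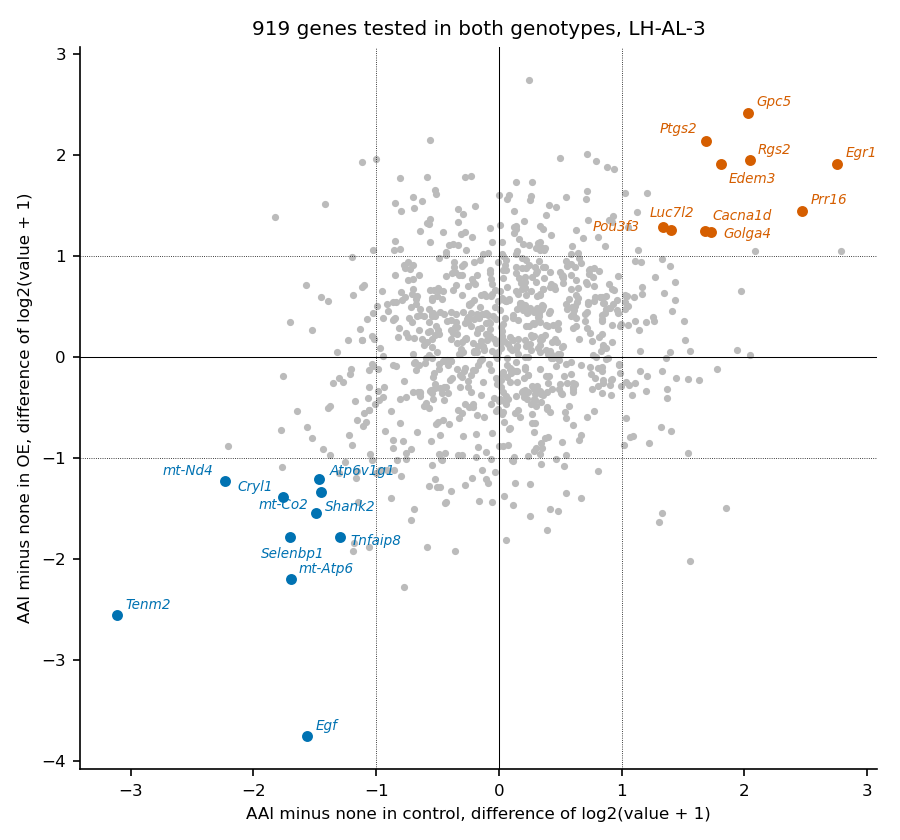
Differences of log2(value + 1) with AAI in LH-AL-3, control on the horizontal and OE on the vertical axis, for 919 genes tested in both genotypes, with 1 point per gene and the 10 largest common changes in each direction coloured. Tenm2 lies at -3.11 and -2.56, Egf at -1.56 and -3.75 and Egr1 at 2.76 and 1.91.

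Transcripts of the mitochondrial genome were lower with AAI. The 13 genes summed to 246.5 (227 to 268), 89.4 (78.8 to 101), 249 (230 to 269) and 119 (107 to 133). In control 10 were tested, of which 1 was higher and 8 lower, and the median of their differences was -1.40 against 0.03 over all genes. In OE 9 were tested, of which 0 were higher and 5 lower, with a median of -1.09 against 0.16. mt-Atp6, an ATP synthase subunit, was at 32.3, 9.27, 48.1 and 9.69, mt-Co2, a cytochrome oxidase subunit, at 34.4, 11.96, 30.6 and 11.5, and mt-Nd4, of complex I, at 15.8, 2.59, 20.5 and 8.20. The exception in control was mt-Nd5, at 0.843 and 2.71.

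The sum of the 13 genes was also lower with AAI in LH-AL-1 (253.5, 159, 333 and 135) and LH-AL-2 (222, 124, 302 and 120). mt-Atp6 was also lower in LH-AL-1 (-0.78 and -1.79) and LH-AL-2 (-1.04 and -1.85). The proximal tubule sum and the depth of nuclei moved with AAI in the same mice, and their part in these differences was not tested. Nuclear genes of oxidative phosphorylation summed to 67.7, 52.8, 87.4 and 54.5, with 0 higher and 1 lower of 9 tested in control and 0 higher and 7 lower of 14 tested in OE, beside 23.3% and 24.8% of all genes in either direction.

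The salt transport list, Umod and Egf included, had 0 higher and 4 lower of 15 tested with AAI in control (median -0.11). In OE it had 1 higher and 3 lower of 15 (median -0.31). The share was 26.7% in each, near the 23.3% and 24.8% of all genes. Macula densa markers had 1 higher and 0 lower of 4 tested in control, beside 11.6% of all genes higher, and 4 higher of 4 tested in OE, beside 13.5%, where the median was 1.72. In OE, Ptgs2 and Pappa2 reached the minimum of 2 through OE_AAI alone, so they could not have counted as lower. The same held for Ptgs2 in control. The 4 of 4 is therefore a description. In OE, Pappa2 was 10.2-fold higher with AAI (3.96 to 41.5), Robo2 2.53-fold (1.91 to 3.41) and Nos1 2.20-fold (1.18 to 4.20). In control the ratios were 1.20 (0.713 to 2.14), 1.00 (0.768 to 1.31) and 1.11 (0.644 to 1.86). The untreated OE mouse had the lowest level of the 4 in these 3 genes, and with AAI the genotypes had Nos1 at 12.9 and 13.1.

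The sum of the tubular injury list was higher with AAI, and nearly all of the gap was 1 gene, Spp1 (osteopontin), at 2.96, 26.3, 7.62 and 16.8. Its ratio was 8.89 in control (3.98 to 22.2) and 2.20 in OE (1.29 to 3.95). The 24 genes summed to 11.9 (7.85 to 17.3), 36.2 (29.5 to 43.8), 19.4 (14.4 to 25.5) and 28.2 (22.3 to 35.1), against 17.4 to 20.9 in LH-AL-1 and 21.03 to 22.3 in LH-AL-2. Without Spp1, the other 23 genes summed to 8.94, 9.85, 11.75 and 11.42. In control 1 of 2 tested members was higher and in OE 2 of 4, beside 11.6% and 13.5% of all genes. Havcr1 and Lcn2, the classical injury markers, and Sox9 and Vim were at 0 in 4 of 4 mice. Polr2a, the largest RNA polymerase II subunit, was at 2.65, 2.44, 1.15 and 3.37.

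Targets of p53 did not reach the minimum value, with 0 of 29 tested in any comparison. Their sums were 9.28 (5.76 to 14.2), 9.89 (6.59 to 14.3), 5.08 (2.74 to 8.62) and 15.7 (11.397 to 21.1), beside 6.19, 10.7, 5.70 and 12.1 in LH-AL-1 and 6.13, 10.96, 5.05 and 12.8 in LH-AL-2. Cdkn1a, the cell cycle inhibitor, was at 0 in 4 of 4 mice, and Mdm2 was at 1.26, 1.27, 0.231 and 1.04. Cell cycle genes were at 0 in 4 of 4 mice for 18 of 22.

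Heat shock and chaperone genes summed to 9.32, 11.36, 16.3 and 11.14. Splicing factors summed to 77.5, 75.2, 60.1 and 85.7, with 1 higher and 3 lower of 20 tested with AAI in control and 3 higher and 0 lower of 16 in OE, shares below the 23.3% and 24.8% of all genes. Ribosomal protein genes summed to 28.7, 35.3, 54.4 and 33.4, highest in OE, as they also were in LH-AL-1 (52.2) and LH-AL-2 (51.9).

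**Figure D5:**
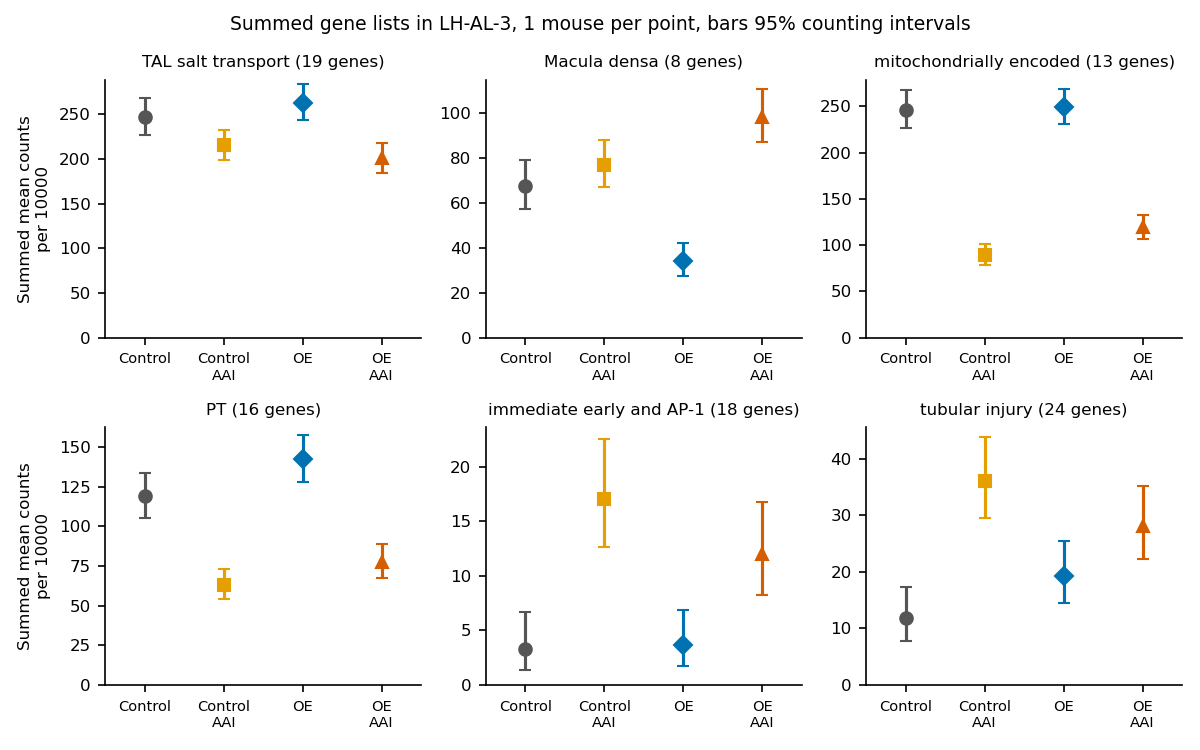
Summed mean counts per 10000 of 6 gene lists in LH-AL-3, with 1 point per mouse and bars for the 95% counting interval. The mitochondrially encoded sum was 246.5 and 249 without AAI and 89.4 and 119 with it, the immediate early sum was higher in both AAI-treated mice, and the macula densa sum was lowest in OE at 34.2.

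Genotype moved few genes the same way without and with AAI. Without AAI, 116 of 1329 genes were higher in OE (8.73%) and 185 lower (13.9%), together 22.6%, and the median was -0.16. Centred on that median, 174 were higher and 126 lower. With AAI, 97 of 1338 were higher (7.25%) and 126 lower (9.42%), together 16.7%. In LH-AL-1 the shares were 1.61% and 0.522%, and in LH-AL-2 1.18% and 0.212%. Of 876 genes tested in both comparisons, 6 were higher and 9 lower in both (1.71%), while 10 moved in opposite directions (1.14%).

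The 6 higher genes included Nrg1, Ap1g1, Vegfa, Dbi and Snx24. Nrg1, the ErbB ligand neuregulin, was at 0.340, 0.450, 2.61 and 3.43, with ratios of 7.66 (0.778 to 273) and 7.63 (1.46 to 447) that rest on 3 and 2 UMIs in control. Vegfa, the endothelial growth factor, was at 0.461, 0.362, 2.19 and 2.35. These levels rest on a few UMIs, and the genes were chosen for this order. In LH-AL-1 and LH-AL-2, Nrg1 differed by -0.14 to 0.20.

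The 9 lower genes were Stim2, Hdac9, Map3k3, Fbxl7, Atp2b4, Slc15a2, Nrxn3, Plekhg1 and Sema6a. Stim2, an endoplasmic reticulum calcium sensor, was at 4.803, 6.07, 1.08 and 1.31, and Atp2b4, a plasma membrane calcium pump, at 4.01, 5.56, 0.984 and 1.46. Map3k3, a kinase upstream of MAPK signalling, was at 5.10, 8.42, 1.01 and 2.40, and Hdac9, a histone deacetylase, at 3.36, 3.66, 0.493 and 0.673. These genes too were chosen for being lower in both OE mice. Map3k3 differed by at most 0.29 in either direction in LH-AL-1 and LH-AL-2.

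Nrxn3, a neurexin adhesion gene, was at 8.72, 15.99, 3.498 and 1.06 in LH-AL-3. It was 2.49-fold lower in OE without AAI (1.12 to 6.41) and 15.1-fold lower with AAI (4.79 to 74.9). In LH-AL-2, Nrxn3 was at 16.1, 11.05, 6.53 and 5.05, with differences of -1.19 and -0.995 on the log2(value + 1) scale. Among macula densa markers, 0 were higher and 1 was lower of 3 tested without AAI, beside 8.73% and 13.9% of all genes. With AAI 0 of 4 passed, beside 16.7% of all genes.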

How the data were processed

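Nuclei from the kidney cortex of 4 mice, 1 per group, were sequenced on the 10x platform. Reads were aligned with Cell Ranger to an mm10 pre-mRNA reference, so introns are counted, and nuclei were filtered by gene number and mitochondrial share before clustering with Seurat. The methods name no doublet step for the nuclear RNA data. The deposited signal values are, from the values themselves, counts per 10000 as a mean over the nuclei of a cluster in each mouse, made by the authors with a function not given in the sources used here. All 92 columns sum to 10000. Of 19632 gene rows, 23 with date-like names were left out. Cluster names follow the order of the sheets in the study's marker table.

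A gene seen as 1 UMI in 1 nucleus has a value set by the number of nuclei and the UMIs of that nucleus. Values shared by many genes therefore gave the nuclei of each column, 34146 in all, and the UMI total of each LH-AL-3 nucleus. Values of LH-AL-3 genes were resolved into whole UMIs up to 13, or beyond that where a single nucleus held all UMIs of the gene. Poisson intervals of sums used UMI equivalents (the value over the mean value of 1 UMI), and conditional binomial intervals of ratios used them rounded, both at 95%.

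Differences were taken on the log2(value + 1) scale. The minimum of the larger value was 2 and the threshold 1. No test was made, since each group has 1 mouse. The members and the 25 gene lists were chosen with earlier results of these data known. Genes named are Slc12a1, Enox1, Klf6 and the ascending limb lists, the 15 higher and 10 lower against LH-AL-1 and LH-AL-2, the 15 with the largest ratio to the next cluster, the 10 largest common changes in each direction for AAI and genotype, and the 2 largest differences in each direction from other lists. Genes outside these, such as list members at 0 and those completing a short count, were named after their values were seen. Some genes that fall under the rule are not reported here. Alternatives were other minimums, pseudocounts and thresholds, centring, leaving out mitochondrially encoded genes, and leaving out each mouse. List sums without Slc12a1, Enox1 or Spp1 were added after seeing the data. Promoters are RefSeq windows, and gene spans come from the GENCODE annotation of GRCm38. The scripts were tested on simulated data. The software was NumPy 2.4.6, SciPy 1.17.1, pandas 2.3.3 and Matplotlib 3.10.9 under Python 3.11.15.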

Additional observations from a re-analysis of the deposited data

Results flagged for a closer look

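In 8 genes of LH-AL-3 the difference with AAI passed the threshold in both genotypes in opposite directions, as values of log2(value + 1), which is 0.871% of 919 genes. The difference between the genotypes was not tested, since each group has 1 mouse, and each level rests on few UMIs. As above, the order is Control, Control_AAI, OE and OE_AAI.

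In 4 genes AAI went with a higher level in control and a lower one in OE. Defb1, the constitutive beta-defensin of the distal nephron, was at 0.558, 3.59, 5.45 and 0.589, and the OE difference minus the control difference was -3.58. Ugp2, which makes UDP-glucose, was at 0.0469, 2.77, 2.31 and 0.176 (-3.34). Bend7 was at 0.637, 3.03, 2.60 and 0.162 (-2.93). Snd1, a component of RNA silencing complexes, was at 0.373, 2.45, 2.95 and 0.352 (-2.88).

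In the other 4 genes the directions were turned around. Luzp2 was at 3.04, 0.984, 0.724 and 2.60, with an OE difference minus the control difference of 2.09. Acyp2, an acylphosphatase, was at 2.73, 0.399, 0.478 and 3.22 (2.93). Kcnd2 was at 7.38, 2.86, 1.30 and 7.77 (3.05). Cers6, a ceramide synthase, was at 3.82, 0.362, 1.30 and 5.01 (3.21). In LH-AL-1 and LH-AL-2 the differences with AAI in these 8 genes lay between -0.67 and 0.34.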

How the results depend on the processing

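LH-AL-3 was also the cluster with the most Enox1 among clusters 13 to 22 and with the most Slc12a1 in each mouse alone. Over all 23 clusters, Slc12a1 was highest in cluster 7. With a minimum of 5, a pseudocount of 5, or thresholds of 0.5 and 2, the genes that differed from both LH-AL-1 and LH-AL-2 numbered 23, 10, 92 and 6 in place of 37. With the mean of the 4 columns they numbered 130, and against cluster 7 alone 62. Leaving out 1 mouse gave 42 to 69, with 69 without the OE mouse, which had the fewest UMIs. Genes highest of all clusters numbered 11 with a minimum of 5, in place of 22, and 23 to 29 without 1 mouse.

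Of the genes past the threshold with AAI in control (324), 724 were counted with a minimum of 0.5 or none, 67 with a minimum of 5, 526 and 15 with pseudocounts of 0.1 and 5, and 769 and 12 at thresholds of 0.5 and 2. For AAI in OE (328) these counts were 778, 86, 546, 17, 761 and 17. For OE against control without AAI (301) they were 765, 55, 527, 6, 772 and 11, and with AAI (223) they were 538, 34, 408, 5, 661 and 7. Calls over the gene lists numbered 217 with a minimum of 0.5 or none, in place of 116. A minimum of 0.5 moved 2 of the list medians and left 27. Among those moved was nuclear oxidative phosphorylation with AAI in OE. Leaving out the mitochondrially encoded genes kept the counts of the 6 comparisons within 1.5 times, and so did centring for the 4 between conditions and for the gene lists. Centring turned the balance of directions for AAI in OE, from 178 higher and 150 lower to 129 and 209, and for OE without AAI, from 116 and 185 to 174 and 126. Of single named genes and lists, a pseudocount of 0.1 moved 20 of the differences and left 89 within the limit, and no alternative reversed one that was past the threshold. With a pseudocount of 5, 0 of the 10 genes named as higher with AAI and 4 of the 10 named as lower passed it in both genotypes, and of the genes named for genotype 0 passed in both comparisons. The LH-AL-3 columns rest on 31281 to 41245 UMIs from 16 to 19 nuclei, which limits single genes near a level of 2. No paired analysis was possible because each group has 1 mouse.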

Other observations

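LH-AL-3 nuclei were 2.81% of the ascending limb nuclei in Control (exact binomial 95% interval 1.70 to 4.35), 2.85% in Control_AAI (1.64 to 4.59), 2.18% in OE (1.28 to 3.47) and 2.83% in OE_AAI (1.66 to 4.49). The 4 intervals overlap.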
